A study of Mus musculus with 21 samples.

Results

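The 378 DNA 8-mers described here carry the GTCA half-site of the cAMP response element (CRE) with A, G or T directly before it, in place of the C that completes the central CpG of the CRE. They were chosen by sequence alone among the 65535 8-mers scored on each array. On the strand that was synthesised on the array, a member either ends in the half-site with its preceding base or starts with the reverse complement of that. The class with A before the half-site is AGTCA, whose reverse complement class is TGACT. With G it is GGTCA, paired with the class TGACC, and with T it is TGTCA, paired with the class TGACA. 8-mers within 1 mismatch of the CRE (TGAC joined to GTCA), PAR (TTAC joined to GTAA) or C/EBP (TTGC joined to GCAA) palindrome were left out, which removed 6 candidates, all of them near the CRE. Each of the 6 classes holds 63 members. A member is read from 1 to 35 probes (median 17), and 374 members have at least 8 probes. The 4 others are TGACC members with 1 or 2 probes, and are counted but not named as findings. A further CG outside the half-site occurs in 78 members, the AP-1 heptamer (TGAGTCA or its reverse complement TGACTCA) in 8, and a TTA or TTG triplet at the place where the PAR and C/EBP palindromes have it in 12.

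Basic leucine zipper (bZIP) proteins bind DNA as dimers, and the basic region of each subunit reads its own part of a palindromic site. CREB1 is known for binding the CRE with its central CpG, and methylation of that CpG is known to weaken its binding. CEBPB prefers the C/EBP palindrome, and the PAR palindrome is the site of the related PAR bZIP proteins. TGTCA differs from the CRE half-site by the T that deamination of a methylated cytosine leaves. AGTCA is the half-site of AP-1, the Fos and Jun dimers, and GGTCA resembles the half-site of nuclear receptors.

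The following members carry the main differences. Capitals mark the GTCA or TGAC core with its neighbouring base, lower case the outer bases, and each sequence is the synthesised strand, 5′ to 3′. A line pairs with the next one as reverse complements, so both lie on the same duplex with the synthesised strand swapped.
T before GTCA, outer TTA: ttaTGTCA
its reverse complement: TGACAtaa
T before GTCA, outer TTG: ttgTGTCA
its reverse complement: TGACAcaa
T before GTCA, outer ACG: acgTGTCA
its reverse complement: TGACAcgt
T before GTCA, outer ACA: acaTGTCA
its reverse complement: TGACAtgt
A before GTCA, outer CGT: cgtAGTCA
its reverse complement: TGACTacg
A before GTCA, AP-1 heptamer: atgAGTCA
its reverse complement: TGACTcat
G before GTCA, outer TTA: ttaGGTCA
its reverse complement: TGACCtaa
The C-preceded 8-mers used as their matched comparison have the same outer bases, such as ttaCGTCA with TGACGtaa, and ttgCGTCA with TGACGcaa. Whole probes show how an 8-mer, here all in capitals, sits in its 35 bases. Brightest refers to the mean background-subtracted signal on the arrays of CEBPB(V285A) on C, among the probes of that 8-mer.
Brightest TGACAtaa probe: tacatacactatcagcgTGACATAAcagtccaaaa
Brightest TGACAcaa probe: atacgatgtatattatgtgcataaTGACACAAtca
Brightest ttaTGTCA probe: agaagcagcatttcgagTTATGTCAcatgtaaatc

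The study measured binding of mouse bZIP DNA-binding domains to protein binding microarrays, in which a tagged protein binds a large set of double-stranded probes and is detected by fluorescence. The proteins carried an N-terminal GST tag and were made by in vitro transcription and translation, so binding was measured outside cells. They were CEBPB(V285A), in which a valine of the basic region is replaced by alanine, CREB1(A297V), which carries alanine to valine, and wild-type CEBPB and CREB1. The second DNA strand was synthesised by primer extension with 5-hydroxymethylcytosine (5hmC), 5-methylcytosine (5mC) or plain cytosine (C) in place of every C, so modified DNA is modified on that strand only. On 5hmC there were 2 arrays of CEBPB(V285A), 4 of CREB1(A297V), 2 of CEBPB and 2 of CREB1. On 5mC there were 2 arrays of CEBPB(V285A), 2 of CREB1(A297V) and 1 of CREB1. On C there were 2 arrays each of CEBPB(V285A), CREB1(A297V) and CREB1. Every member holds at least 1 C on the synthesised strand. In the classes that end in GTCA this is the outer C of the half-site, and in those that start with TGAC it is the C that belongs to the CpG in the CRE, here followed by A, C or T.

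Values are the authors' deposited 8-mer Z-scores, whose median over all 8-mers is 0 on every array when rounded to 2 decimals. A difference was called at an adjusted p under 0.05 in limma fitted on all 8-mers and all 21 arrays, with Benjamini-Hochberg adjustment over all 8-mers. The number of arrays limits the precision, and nothing states that replicate arrays used separate protein preparations, so p-values measure only the spread between arrays. Across the members, replicate arrays correlated at r = 0.969 for CEBPB(V285A) on C and at r = 0.855 for CREB1 on C, but at 0.303 to 0.642 among the 4 arrays of CREB1(A297V) on 5hmC. The file names carry 6 different numbers whose meaning is not given. Groups compared share a number only for CREB1(A297V) against CREB1 on C, CREB1 and CREB1(A297V) on 5mC against C, 2 of the 4 arrays of CREB1(A297V) on 5hmC against C, and CEBPB against CREB1 on 5hmC. One number is shared by 9 arrays of CREB1 and CREB1(A297V). In all other comparisons, CREB1 on 5hmC against C included, number and group cannot be told apart.

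On plain C, the members as a whole lay above the average 8-mer. With CEBPB(V285A) and CREB1 they lay far below the CpG half-site. With these proteins the T-preceded classes had the highest medians among A, G and T before GTCA. With CREB1(A297V) the gap to the CpG half-site was much smaller in Z-scores, whose span also differed between the proteins. The median member scored 0.988 ± 0.147 with CEBPB(V285A), 0.174 ± 0.0538 with CREB1(A297V) and 0.800 ± 0.186 with CREB1 (SD, n = 2 arrays each). TGTCA members had array medians of 2.29 ± 0.254 with CEBPB(V285A), 0.435 ± 0.356 with CREB1(A297V) and 1.42 ± 0.134 with CREB1. Their reverse complements TGACA had 2.43 ± 0.120, 0.971 ± 0.0442 and 1.88 ± 0.425 in the same order of proteins. AGTCA members, the AP-1 half-site, scored 0.731 ± 0.0280 with CEBPB(V285A) and 0.796 ± 0.0401 with CREB1. GGTCA members scored 0.556 ± 0.174 with CEBPB(V285A) and 0.404 ± 0.120 with CREB1. With the same 3 outer bases, T gave the highest of the scores of T, A and G in 45 of 63 triplets for CEBPB(V285A), 27 of 63 for CREB1(A297V) and 39 of 63 for CREB1, when the synthesised strand ended in GTCA. In the other orientation the counts were 48, 50 and 53 of 63. For CREB1(A297V) in the GTCA orientation, A was highest in 28 triplets, so T did not lead there.

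The matched C-preceded 8-mers with the same outer bases had array medians of 10.4 ± 1.47 with CEBPB(V285A), 0.898 ± 0.360 with CREB1(A297V) and 5.72 ± 1.65 with CREB1 for CGTCA. For TGACG they were 9.30 ± 2.34, 1.12 ± 0.364 and 7.32 ± 1.20. Tested member by member, 330 of 378 fell below their C-preceded counterpart with CEBPB(V285A), where 17.8 percent of all 8-mer pairs differing at that position were called in the GTCA orientation and 15.9 percent in the other. With CREB1, 317 members fell below it, against a background of 13.1 percent and 10.8 percent. With CREB1(A297V), 24 fell below it, against 7.15 percent and 4.83 percent, a share close to the background. On the asinh scale more members differed with this protein, as given below. The calls in the other direction, 2 each for CEBPB(V285A) and CREB1, were cccTGTCA and cccAGTCA, whose counterpart cccCGTCA is on no probe and is listed at 0, so they are no measured comparison. The CREB1 count was 198 without CREB1 C replicate 2, and the CREB1(A297V) count was 5 without its C replicate 1 and 1 without its C replicate 2. The distance from the counterpart was widest at the outer TTA triplet. There TGACAtaa scored 44.8 ± 1.56 with CEBPB(V285A) and TGACGtaa 192 ± 27.0. With CREB1, TGACAtaa scored 6.42 ± 0.539 and TGACGtaa 76.5 ± 10.2. With CREB1(A297V) they scored 7.14 ± 0.550 and 37.4 ± 2.52. The rule that left out 8-mers near a palindrome was applied to the members but not to their counterparts. TGACGtaa and ttaCGTCA each lie within 1 mismatch of both the CRE and the PAR palindrome, so this gap is not that of an isolated half-site.

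Among TGTCA members on C, median scores were lowest where a C stood just before the T. With CEBPB(V285A) the median TGTCA member scored 3.08, 3.10 and 2.42 where A, G or T stood there and 0.964 where C did. With CREB1 the medians were 1.70, 1.80 and 1.87 for A, G and T and 0.5625 for C. The gap was smaller among their reverse complements TGACA, grouped by the same base, at 2.82, 2.16 and 2.56 for A, G and T and 1.69 for C with CEBPB(V285A), and 2.11, 2.55 and 2.07 for A, G and T and 1.32 for C with CREB1. These are descriptions over 63 sequences in each orientation, some of which share probes.

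The highest members on C differed between the proteins. For CREB1 they were TGACAcgt, which scored 6.50 and 8.50 in the 2 arrays and ranked 375 of 65535, and its reverse complement acgTGTCA, which scored 6.05 and 7.31. For CEBPB(V285A) they were TGACAtaa, at 43.7 and 45.9 and rank 55, and ttaTGTCA, at 16.3 and 21.6 and rank 236. TGACAtaa also led with CREB1(A297V), at 7.53 and 6.75 and rank 81. The top 1 percent of all 8-mers began at 9.02 for CEBPB(V285A), 3.52 for CREB1(A297V) and 5.28 for CREB1, and held 3, 3 and 6 of the 378 members. TGACAcgt and acgTGTCA hold a CG outside the half-site. Of the 6 with CREB1, 4 were among the 78 members with such a CG (5.13 percent). The other 2 were among the 300 without one (0.667 percent). The duplex is the same for a member and its reverse complement on C, yet their scores were only partly alike: across the 189 pairs Pearson's r was 0.749 for CEBPB(V285A), 0.301 for CREB1(A297V) and 0.461 for CREB1. Spearman's rho, which uses ranks, was lower, at 0.528, 0.215 and 0.31 in the same order. Each orientation is read from its own probes.

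CEBPB(V285A) was compared with CREB1 on plain C to see where the mutant and CREB1 differ. Wild-type CEBPB was not measured on C, so this comparison cannot show the effect of the exchanged residue itself. Of the 378 members, 10 were higher with CEBPB(V285A) and 0 lower, against a background of 0.888 percent of all 8-mers higher and 0.0381 percent lower (0.926 percent in either direction). At an unadjusted p under 0.05 in limma, 70 members differed in either direction. The median difference over the members was 0.18, and over all 8-mers 0.00. The calls comprised 5 TGTCA, 3 TGACA, 1 GGTCA and 1 TGACC member, and no A-preceded one. Of the 12 members with an outer TTA or TTG, 5 were among the 10.

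ttaTGTCA showed the clearest gap, with 16.3 and 21.6 in the CEBPB(V285A) arrays, against 0.926 and 0.941 in the CREB1 arrays. The difference was 18.0 (SE 1.35, adjusted p = 1.67e-05 in limma). TGACAtaa had 43.7 and 45.9 with CEBPB(V285A), against 6.80 and 6.04 with CREB1 (difference 38.4, SE 7.14, adjusted p = 0.0179). In both cases all arrays of the mutant lay above all arrays of CREB1. The TGACAtaa call was lost on leaving out any one of these 4 arrays, with an adjusted p of up to 0.154. ccaTGTCA scored 9.56 and 7.35 with CEBPB(V285A), against 3.14 and 3.44 with CREB1 (difference 5.17, adjusted p = 4.58e-04).

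TGACAtgt was also called higher as deposited, at 7.29 and 8.48 with CEBPB(V285A), against 2.68 and 2.55 with CREB1. Its direction is not settled. Z-scores recomputed from the deposited probe signals gave it 1.83 and 1.15 on the CEBPB(V285A) arrays, and the difference was then below 0. Of 7938 member values, 11 differed by more than 2 between the deposited and the recomputed score, and 2 of these are TGACAtgt on the 2 arrays of CEBPB(V285A) on C. Every result below that sets this group against another carries the same limit for TGACAtgt. Without CEBPB(V285A) C replicate 1 the count of 10 calls was 5, and without CREB1 C replicate 2 it was 6.

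The members that were lower with CREB1(A297V) than with CREB1 on C were mostly T-preceded, and 5 of the 10 held a CG outside the half-site. Of the 378 members, 10 were lower and 0 higher, against 1.42 percent of all 8-mers lower and 0.108 percent higher (1.53 percent in either direction). At an unadjusted p under 0.05 in limma, 84 differed in either direction. The 10 comprised 5 TGTCA, 2 TGACA and 3 TGACT members. The 5 with a CG outside the half-site come from 78 such members, and include TGACAcgt, gcgTGTCA and acgTGTCA. The others come from the 300 members without one. Whether the calls go with the preceding T or with this CG was not tested. TGACAcgt scored 1.30 and 1.87 with CREB1(A297V), against 6.50 and 8.50 with CREB1 (difference -5.92, SE 0.911, adjusted p = 0.00405). gcgTGTCA scored -0.497 and 0.846 with CREB1(A297V), against 4.59 and 7.48 with CREB1 (difference -5.86, adjusted p = 0.00256). Of the 15 probes of gcgTGTCA, 4 also carry a CG half-site, and its recomputed CREB1 score on C was 3.92 without them and 6.20 with them, and the difference between the proteins was still called without them. acgTGTCA had a difference of -5.42 (adjusted p = 0.0136) and acaTGTCA one of -4.13 (adjusted p = 0.0025). In none of these 4 did the arrays of the mutant overlap those of CREB1. TGACAtaa, the leading member of the mutant, scored 7.14 ± 0.550 with CREB1(A297V) and 6.42 ± 0.539 with CREB1, and was not called. Without CREB1 C replicate 2 the count was 1, without CREB1(A297V) C replicate 1 it was 3 and without its replicate 2 it was 4. In the 9 arrays whose file names share a number, which hold both groups, it was 1.

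On 5mC, many members were called lower with CEBPB(V285A), few were called with CREB1, which had 1 array there, and none passed with CREB1(A297V). With CEBPB(V285A), 65 members were lower on 5mC than on C and 3 were higher, against a background of 3.49 percent lower and 3.01 percent higher (6.50 percent in either direction). T-preceded members made up 38 of the 65, with 27 TGTCA and 11 TGACA, and the median difference was -1.78 for TGTCA, -0.74 for AGTCA and -0.51 for GGTCA. Over all members it was -0.81, and over all 8-mers 0.00. Without CEBPB(V285A) C replicate 1 the 68 calls were 33, and they were 41 and 40 without its 5mC replicate 1 and 2.

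The orientations of the TTG duplex went opposite ways. TGACAcaa scored 26.1 and 31.3 with CEBPB(V285A) on 5mC, against 7.99 and 6.65 on C (difference 21.4, SE 1.42, adjusted p = 1.58e-07). Its partner ttgTGTCA scored 0.708 and 2.22 on 5mC, against 5.82 and 5.63 on C (difference -4.26, adjusted p = 1.23e-04). The C-preceded counterpart TGACGcaa scored 221 ± 22.9 on 5mC and 57.7 ± 4.35 on C, and ttgCGTCA had 16.0 ± 1.13 on 5mC and 85.1 ± 11.3 on C. Of the 17 probes of TGACAcaa, 2 also carry a CG half-site. Recomputed without them, TGACAcaa scored 30.9 on 5mC and 7.51 on C.

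ttaTGTCA fell to 5.94 and 4.69 with CEBPB(V285A) on 5mC, against 16.3 and 21.6 on C (difference -13.6, SE 1.35, adjusted p = 9.23e-06). acgTGTCA fell to 2.29 and 0.396 on 5mC, against 9.10 and 10.2 on C (difference -8.29, adjusted p = 7.05e-05). ccaTGTCA fell to 1.16 and 1.15 on 5mC, against 9.56 and 7.35 on C (difference -7.30, adjusted p = 1.22e-06). The arrays did not overlap for any of them. TGACTgca scored 3.57 and 5.61 on 5mC, against 0.159 and 0.229 on C (adjusted p = 4.36e-04), but the recomputed score of the first 5mC array was 1.16. TGACAtaa ranked next after TGACAcaa among the members, at 16.9 and 26.4 on 5mC, and was not called against C.

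With CREB1, 2 members were lower on 5mC and 0 higher, against 0.412 percent lower and 0.414 percent higher (0.826 percent in either direction), where 57 had an unadjusted p under 0.05 in limma. The single CREB1 array on 5mC borrows its spread from the other groups, so few calls do not show that few members changed. The median member scored 0.397 on it, against 0.800 ± 0.186 on C. The median was 0.297 for TGTCA, against 1.42 ± 0.134 on C, and 0.940 for TGACA, against 1.88 ± 0.425. For TGACT it was 0.495, against 0.482 ± 0.177 on C. The 2 called members, TGACAcgt and gcgTGTCA, both hold a CG outside the half-site, so no member without one was called. TGACAcgt scored 1.66 on that array, against 6.50 and 8.50 on C (difference -5.84, adjusted p = 0.0241). gcgTGTCA scored 0.589 on it, against 4.59 and 7.48 on C (adjusted p = 0.0237). This gcgTGTCA call was lost without the probes that carry a CG half-site (difference -3.10, adjusted p = 0.205). Both calls were lost without CREB1 C replicate 2 and in the 9 arrays that share a file-name number. TGACTacg was the highest member on this array, at 6.93 and rank 289 of 65535, against 3.42 and 4.14 on C, and was not called. Its partner cgtAGTCA scored 0.0938 there. With CREB1(A297V), 0 members passed on 5mC, against 0.0137 percent lower and 0.0198 percent higher over all 8-mers (0.0336 percent in either direction), and 54 had an unadjusted p under 0.05 in limma. The count was 2 without CREB1(A297V) 5mC replicate 1.

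On 5hmC, the members were called with CREB1 no more often than other 8-mers. Of the 378 members, 16 were lower on 5hmC than on C and 13 higher, against 5.27 percent of all 8-mers lower and 4.31 percent higher (9.58 percent in either direction), so neither count stands above the background. By orientation, as a description with no background split the same way, the members that end in GTCA gave 13 lower and 1 higher, and those that start with TGAC gave 3 lower and 12 higher. The lower calls on the GTCA side were 4 AGTCA, 7 GGTCA and 2 TGTCA, and the higher calls on the TGAC side were 6 TGACT, 5 TGACA and 1 TGACC, which has only 2 probes. TGACAcgt scored 2.11 and 3.73 on 5hmC, against 6.50 and 8.50 on C (difference -4.58, adjusted p = 0.00827). gaaAGTCA scored -1.08 and -1.31 on 5hmC, against 1.04 and 1.90 on C (adjusted p = 0.00477). TGACAacc scored 3.32 ± 0.648 on 5hmC and 0.766 ± 0.0157 on C (adjusted p = 0.0166). Groups of arrays did not overlap for these 3. The 29 calls were 11 and 6 without CREB1 C replicate 1 and 2, and 2 and 7 without CREB1 5hmC replicate 1 and 2.

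TGTCA members as a class had near-equal array medians with CREB1, 1.37 ± 0.0194 on 5hmC and 1.42 ± 0.134 on C, while their C-preceded counterparts had 0.471 ± 0.0334 on 5hmC and 5.72 ± 1.65 on C. T was above C at the same outer bases in 50 of 63 triplets on 5hmC, against 2 of 63 on C. This was not particular to CREB1: the count on 5hmC was 46 with CEBPB, 44 with CEBPB(V285A) and 48 with CREB1(A297V). On C it was 3 with CEBPB(V285A) and 19 with CREB1(A297V). The triplets include the one whose counterpart cccCGTCA is on no probe and is listed at 0. On the TGAC side the order of C and T with CREB1 was the same on both forms. TGACA had 2.18 ± 0.232 on 5hmC and 1.88 ± 0.425 on C, and TGACG had 6.29 ± 0.157 and 7.32 ± 1.20. T was above C in 2 of 63 triplets on each. With the mutants this TGAC count was higher on 5hmC: 29 with CEBPB(V285A), against 2 on C, and 40 with CREB1(A297V), against 23 on C. It was 22 with CEBPB on 5hmC. In the GTCA orientation the counterpart holds a further modified C before the G, which the members lack.

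With CEBPB(V285A), 70 members were lower on 5hmC than on C and 3 higher, against 4.90 percent of all 8-mers lower and 2.36 percent higher (7.26 percent in either direction). The lower calls included 31 TGTCA, 13 TGACA and 10 GGTCA members. Members with a CG outside the half-site gave 20 lower calls of 78, and those without gave 50 of 300. ttaTGTCA scored 3.49 and 6.14 on 5hmC, against 16.3 and 21.6 on C (difference -14.1, SE 1.35, adjusted p = 1.38e-05). acaTGTCA scored 1.16 and 1.47 on 5hmC, against 8.34 and 8.45 on C (difference -7.08, adjusted p = 4.33e-06). acgTGTCA scored 0.482 and 0.411 on 5hmC, against 9.10 and 10.2 on C (difference -9.19, adjusted p = 4.50e-05). The arrays on 5hmC lay below those on C in all 3. TGACAtaa was not called, with 60.9 and 27.3 on 5hmC, against 43.7 and 45.9 on C. The 2 arrays on 5hmC lay on either side of those on C, and the rank of their mean was 14 of 65535. The 73 calls were 33 and 48 without CEBPB(V285A) C replicate 1 and 2, and 45 without its 5hmC replicate 2.

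With CREB1(A297V), 4 members were lower on 5hmC than on C and 0 higher, against 0.197 percent lower and 0.146 percent higher (0.343 percent in either direction). They were ttaGGTCA, TGACAcac, atgAGTCA and aaaAGTCA. None of these 4 passed without CG half-site probes. ttaGGTCA scored 0.523, -0.0064, 0.843 and 0.793 in the 4 arrays on 5hmC, against 4.04 and 4.72 on C (difference -3.84, adjusted p = 0.0359). Without CREB1(A297V) 5hmC replicate 1 the count was 25, and leaving out any one of 12 other arrays, in this group and others, brought it to 0, 1 or 2. In the 9 arrays that share a file-name number it was 0. Probe signal differed widely among the 5hmC arrays of CREB1(A297V). After background subtraction, the probes of TGACAtaa had medians of 1477.5, 493, 18.0 and 209.5 on them, against 2368 and 2338.5 on C.

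The difference between the 2 proteins in their response was tested directly. For 5mC, 6 members changed more downward with CEBPB(V285A) than with CREB1 and 1 more upward, against 0.249 percent downward and 0.737 percent upward over all 8-mers (0.986 percent in either direction). The upward one was TGACAcaa (difference of differences 21.1, adjusted p = 1.47e-04), and ttaTGTCA was the largest of the downward ones at -13.0 (adjusted p = 0.00598). For 5hmC, 15 members changed more downward with CEBPB(V285A) and 0 more upward, against 1.63 percent downward and 0.354 percent upward over all 8-mers (1.98 percent in either direction). TGTCA members were 9 of the 15, and the class median was -2.14, against 0.01 for all 8-mers. ttaTGTCA had -16.2 (adjusted p = 6.00e-04), acgTGTCA -8.43 (adjusted p = 0.0067) and acaTGTCA -5.88 (adjusted p = 0.00218). Both differences rest on Z-scores as deposited. On the asinh scale, which compresses high values, the counts were 0 for 5mC and 0 for 5hmC. The 5hmC count was 25 without CREB1(A297V) 5hmC replicate 1.

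The proteins were then compared with each other on 5hmC. Against CREB1, CEBPB(V285A) was lower at 23 members and higher at 2, where 2.14 percent of all 8-mers were lower and 1.85 percent higher (3.99 percent in either direction). The higher ones were TGACAtaa, with 60.9 and 27.3 for CEBPB(V285A), against 2.10 and 2.93 for CREB1 (adjusted p = 0.00418), and TGACTtaa, with 5.66 and 8.13, against 2.07 and 2.08 (adjusted p = 8.57e-04). Both share the outer TAA. gtgTGTCA scored 0.732 and 0.683 with CEBPB(V285A), against 4.49 and 4.75 with CREB1 (difference -3.91, adjusted p = 6.42e-04). TGACTacg scored 1.45 and 1.03, against 5.57 and 4.82 (difference -3.95, adjusted p = 0.00835). The 25 calls were 8 and 7 without CREB1 5hmC replicate 1 and 2, 13 without CEBPB(V285A) 5hmC replicate 2 and 38 without CREB1(A297V) 5hmC replicate 1.

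CREB1(A297V) was lower than CREB1 on 5hmC at 75 members and higher at 1, against 6.22 percent of all 8-mers lower and 2.54 percent higher (8.77 percent in either direction). The lower ones were 25 TGACA, 20 TGACT and 15 TGTCA members, with 15 in the other 3 classes. acgTGTCA scored -0.544, -1.14, -1.12 and 1.37 in the 4 arrays of CREB1(A297V), against 4.86 and 6.98 with CREB1 (difference -6.28, adjusted p = 5.86e-04). The recomputed score of acgTGTCA on the second CREB1 array was 4.53, and its difference was -4.07 without CG half-site probes, still called. TGACAatg scored 0.210, 1.63, 0 and 0.272 with CREB1(A297V), against 5.04 and 4.89 with CREB1 (difference -4.44, adjusted p = 4.16e-04). TGACTacg had a difference of -4.70 (adjusted p = 5.58e-04). No array of the mutant reached the lower CREB1 array at these members. Probe signal was low on the CREB1(A297V) arrays. After background subtraction, the probes of acgTGTCA had medians of 272, -279, 4.0 and 166.5 on them. On the CREB1 arrays the medians were 2221.5 and 2375.5. How far the low signal bears on these calls was not tested. The 76 calls were 25 and 23 without CREB1 5hmC replicate 1 and 2.

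Wild-type CEBPB, the parent of the mutant, was measured on 5hmC only. Against CREB1 it was lower at 26 members and higher at 1, where 2.42 percent of all 8-mers were lower and 0.917 percent higher (3.34 percent in either direction). TGACA members gave 13 of the lower calls. TGACAatg scored -0.102 and 0.148 with CEBPB, against 5.04 and 4.89 with CREB1 (difference -4.94, adjusted p = 9.56e-04). These 4 arrays share a file-name number, and within them alone the count was 20. Without CEBPB 5hmC replicate 1 and 2 the 27 calls were 16 and 8, and without CREB1 5hmC replicate 1 and 2 they were 11 and 9.

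CEBPB(V285A) was higher than CEBPB on 5hmC at 6 members and lower at 2, against 1.92 percent of all 8-mers higher and 0.687 percent lower (2.60 percent in either direction). Of the 6, 5 have an outer TTA or TTG triplet. TGACAtaa scored 60.9 and 27.3 with CEBPB(V285A), against 1.98 and 3.50 with CEBPB (difference 41.4, adjusted p = 0.00679). TGACTtaa scored 5.66 and 8.13, against 1.62 and 1.27 (difference 5.45, adjusted p = 4.96e-04). TGACTcaa, which holds the AP-1 heptamer, scored 3.35 and 10.0, against 0.709 and 1.23 (adjusted p = 0.0473), and its arrays of CEBPB(V285A) lay far apart, the second scoring 7.38 when recomputed. The 8 calls were 3 without either array of CEBPB, and 5 without either array of CREB1 on 5hmC, of CEBPB(V285A) on C or of CREB1(A297V) on C.

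Since the modified base lies on one strand, the 189 pairs of reverse complements were tested for a change in the difference between orientations. With CREB1 on 5hmC, 28 pairs changed, where 15.9 percent of all 8-mer pairs did, a share of the members close to the background. In 23 of the 28 the GTCA orientation moved down relative to the TGAC one, a description with no background split by direction. The GTCA orientation was the higher in 51 of 189 pairs on 5hmC and in 92 on C. The same count with CEBPB(V285A) was 61 on 5hmC and 99 on C, and with CREB1(A297V) 88 and 92. With CEBPB(V285A), 19 pairs changed on 5mC, against 4.85 percent, and 13 on 5hmC, against 3.24 percent. The pair of ttgTGTCA and TGACAcaa moved by -25.6 on 5mC (SE 1.39, adjusted p = 1.12e-12), and the pair of ttaAGTCA and TGACTtaa by -4.85 on 5hmC (adjusted p = 0.0021). With CREB1(A297V), 1 pair changed on 5hmC, against 0.968 percent, and 10 without its 5hmC replicate 1. Neither CREB1 nor CREB1(A297V) had a pair that passed on 5mC, where 0.573 and 0.00613 percent of all pairs did and 13 and 21 pairs had an unadjusted p under 0.05 in limma. The 28 pairs of CREB1 were 6 and 8 without CREB1 C replicate 1 and 2, and 7 without either CREB1 array on 5hmC. The 19 pairs of CEBPB(V285A) were 5 to 10 and the 13 pairs were 2 to 6 without any one of its own arrays in the comparison.

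The 8 members with the AP-1 heptamer had an array median on C of 2.65 ± 0.788 with CEBPB(V285A), 0.821 ± 0.0917 with CREB1(A297V) and 1.45 ± 0.797 with CREB1, each above the median of all members given above. The TGACA class had 2.43 ± 0.120, 0.971 ± 0.0442 and 1.88 ± 0.425 in the same order, so it was the higher with CREB1(A297V) and CREB1. TGACTcat was the highest of the 8 on C, with 5.01 and 6.58 for CEBPB(V285A), 1.68 and 2.15 for CREB1(A297V), and 3.19 and 4.88 for CREB1. Of the 8, 5 fell with CEBPB(V285A) on 5mC and 3 on 5hmC, and none was called with CREB1 on either form, against the backgrounds given above for these comparisons. The 12 members with an outer TTA or TTG spread widely on C with CEBPB(V285A), between 1.10 for ttgGGTCA and 44.8 for TGACAtaa. With the outer TTA, T before the half-site scored above G and A: 18.9 for T, 4.90 for G and 4.44 for A in the GTCA orientation, and 44.8 for T, 4.54 for G and 5.36 for A in the TGAC orientation. CREB1(A297V) scored ttaGGTCA at 4.38 ± 0.482 and ttaTGTCA at 0.793 ± 0.638 on C, so there the G-preceded member was the higher. Grouped by the number of C on the synthesised strand, members with 1 C gave 27 lower calls of 132 with CEBPB(V285A) on 5hmC. Those with 2 C gave 30 of 160 and those with 3 or more gave 13 of 86. The number of C goes with the class, as no TGACC member has only 1, and its bearing on the calls was not tested.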

How the data were processed

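Protein binding microarrays of 21 arrays in 10 groups were read from the deposited matrix of 8-mer Z-scores and from the deposited probe intensities of each array. The unit of the matrix is a score, and the authors deposited it with no account of how it was made in the sources used here. The probe files hold median spot and local background intensity per the file headers. Recomputing each 8-mer as the median background-subtracted signal of its probes, centred on the median over all 8-mers of the array and divided by their scaled median absolute deviation, correlated with the deposited score at r = 0.958 to 0.992. Per the labels' protocols the second strand was made by primer extension with C, 5mC or 5hmC. Matrix names were complemented to give the synthesised strand, since reading the probes as the reverse complement of the printed sequence gave the highest r with the matrix on all 21 arrays (0.603 to 0.986 from uncorrected signal, against at most 0.818 for other readings).

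limma 3.58.1 in R 4.3.3 fitted 1 coefficient per group on all 8-mers (lmFit, eBayes with trend, 11 residual degrees of freedom, two-sided). P-values were adjusted by Benjamini-Hochberg over 65535 8-mers, 32639 reverse-complement pairs or 98301 pairs differing at 1 position, and called under 0.05. The fit was tested on simulated data with known changes. Named 8-mers were, per group, the highest member of each class and, per comparison, those called members whose arrays did not overlap, at most 4 upward and 4 downward by size of the difference, then the 8 AP-1 members and the reverse complements of all these. 8-mers with fewer than 8 probes were not named. Members added for a count of 5 or fewer, the C-preceded counterparts and the outer-triplet members were chosen after their values were seen. The members and lists were chosen with earlier results of these data known. Samples with the same replicate number did not deviate together (28 pairs, r = -0.381 to 0.19), so no pairing was used. Alternatives were the asinh scale, quantile normalization, recomputed scores, a probe minimum of 8, blocks and leaving out each array.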

Additional observations from a re-analysis of the deposited data

Results flagged for a closer look

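TGACAatg with CREB1(A297V) on 5hmC has 1 array far from the other 3: the arrays scored 0.210, 1.63, 0 and 0.272. It came from a search for an outlying array over 18 values in groups of 4, and chance alone gives about 1 such array in 20 groups.

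The response to a modified base differed between CEBPB(V285A) and CREB1 in a direct test of the difference. For 5mC, 7 members passed. The difference of the responses was -5.42 for ccaTGTCA, -13.0 for ttaTGTCA, 21.1 for TGACAcaa and -4.52 for TGACAtgt. For 5hmC, 15 members passed. The difference was -5.88 for acaTGTCA, -8.43 for acgTGTCA, -16.2 for ttaTGTCA, -4.82 for ttgTGTCA and -9.27 for TGACAtgt. The TGACAtgt values rest on deposited scores of CEBPB(V285A) on C that the probe signals did not return. The 5mC test rests on 1 array of CREB1 on 5mC.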

How the results depend on the processing

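Counts of called members are given in either direction. Under alternatives other than leaving out an array, 138 counts lay within 1.5 times the reported count and 62 did not, as follows. The cause was not tested.

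CREB1(A297V) against CREB1 on C gave 3 calls on the asinh scale, 1 in the 9 arrays that share a file-name number, 24 after normexp and 6 without probes that carry a CG half-site. CEBPB(V285A) against CREB1 on C gave 2 on the asinh scale, 1 after quantile normalization and 5 after normexp. CREB1 on 5mC against C gave 0 on the asinh scale and in the 9 arrays, 6 after normexp, and 1 without CG half-site probes or without background correction. CEBPB(V285A) on 5mC against C gave 33 on the asinh scale and 42 after quantile normalization. CREB1(A297V) on 5mC against C gave 3 after quantile normalization and 1 without background correction. CREB1 on 5hmC against C gave 16 on the asinh scale, and CEBPB(V285A) on 5hmC against C gave 42 both on that scale and after quantile normalization. CREB1(A297V) on 5hmC against C gave 1 with a minimum of 8 probes or without CG half-site probes, 0 in the 9 arrays, 8 after quantile normalization, and 2 when recomputed with or without background subtraction. CEBPB(V285A) against CREB1 on 5hmC gave 10 on the asinh scale and 39 without background correction. CEBPB(V285A) against CEBPB gave 5 after normexp and 17 without background correction. CEBPB against CREB1 gave 16 on the asinh scale, 17 after normexp and 13 without CG half-site probes.

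The test between the proteins in response to 5mC gave 0 on the asinh scale and after quantile normalization, 2 after normexp, 3 without CG half-site probes and 4 without background correction. For 5hmC it gave 0 on the asinh scale, 5 after quantile normalization or normexp and 26 without background correction. Of the orientation pairs, CEBPB(V285A) gave 5 on 5mC on the asinh scale and after quantile normalization, and on 5hmC 4 on the asinh scale, 2 after quantile normalization, 5 after normexp and 8 without CG half-site probes. CREB1(A297V) gave 3 pairs on 5hmC on the asinh scale and after quantile normalization, 2 after normexp, and 0 without background correction and in the 9 arrays. Members that differed from their C-preceded counterpart with CREB1(A297V) were 82 on the asinh scale, 63 after quantile normalization and 48 without background correction.

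Replicate numbers did not pair the arrays. With the replicate number as a block, CREB1 on 5hmC against C gave 54 calls, CREB1(A297V) on 5hmC against C 1, the test between proteins for 5hmC 28, and the orientation pairs 1 for CREB1 on 5mC and 21 for CEBPB(V285A) on 5hmC. Of the other counts under this block, none moved by over 1.5 times. The file-name number as a block gave 2 for CREB1(A297V) on 5hmC against C and 1 pair for CREB1 on 5mC. It was run only where it could be estimated, and leaving out CG half-site probes does not apply to the C-preceded counterparts.

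Leaving out each array in turn gave 1 to 11 calls for CREB1(A297V) and 5 to 11 for CEBPB(V285A) against CREB1 on C. On 5mC against C it gave 0 to 3 for CREB1, 33 to 74 for CEBPB(V285A) and 0 to 2 for CREB1(A297V). On 5hmC against C it gave 2 to 39 for CREB1, 33 to 81 for CEBPB(V285A) and 0 to 25 for CREB1(A297V). On 5hmC it gave 7 to 38 for CEBPB(V285A) against CREB1, 23 to 94 for CREB1(A297V) against CREB1, 3 to 12 for CEBPB(V285A) against CEBPB and 8 to 38 for CEBPB against CREB1. The tests between proteins gave 5 to 7 for 5mC and 10 to 25 for 5hmC. The orientation pairs gave 0 for CREB1 and for CREB1(A297V) on 5mC, 6 to 37 for CREB1 on 5hmC, 5 to 23 and 2 to 16 for CEBPB(V285A) on 5mC and 5hmC, and 0 to 10 for CREB1(A297V) on 5hmC. The counterpart comparison gave 198 to 324 for CREB1, 283 to 333 for CEBPB(V285A) and 1 to 34 for CREB1(A297V). No value exists without the only CREB1 array on 5mC, and an array left alone in its group is assumed to vary like the others.

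TGACAtgt turned direction in CEBPB(V285A) against CREB1 on C, to -1.33 after normexp, -0.215 without background correction, -0.411 without CG half-site probes and -0.686 with background subtraction. Over 57 results of named members, 255 alternative values no longer passed in the same direction, and 1422 did not change call or direction. The background-subtracted scores and the fits on the 9 arrays, or on the 4 of CEBPB and CREB1 on 5hmC, were chosen after seeing the data. Few arrays per group and scores on different spans per array limit every count.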
